A study of Mus musculus with 8 samples.

Results

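Matrix metalloproteinases are secreted or membrane-bound endopeptidases that cut the proteins of the extracellular matrix. The 10 members described here, Mmp2, Mmp3, Mmp9, Mmp10, Mmp11, Mmp12, Mmp13, Mmp14, Mmp19 and Mmp23, were chosen by gene symbol from a table of 22274 mouse genes, and all 10 were among the 13533 genes that passed the filter on low counts and were tested. Another 13 metalloproteinase genes in the table were treated as paralogs of comparison.

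These enzymes are made as inactive proenzymes. A prodomain covers the catalytic zinc until it is cut away by another protease, by furin-like convertases inside the cell or by plasmin and other metalloproteinases outside it, and tissue inhibitors of metalloproteinases (TIMPs) then bind the active site. By tradition the family is sorted by substrate and build into collagenases, gelatinases, stromelysins, the metalloelastase, membrane-type enzymes and others. In the heart, fibroblasts are a main source of several of them, and matrix turnover in scarring tissue depends on the balance between the proteases, their inhibitors and new matrix. RNA-seq measures transcripts and says nothing of proenzyme, active enzyme or inhibitor-bound enzyme.

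The libraries came from primary mouse cardiac fibroblasts treated with TGF-β, the growth factor that drives fibroblasts towards contractile, matrix-producing myofibroblasts. According to the study's results and figure legend, the cells were transduced with an adenovirus called an empty vector (Ad-EV) or with Ad-FLAG-IRF7. In the study's reagent list, the adenovirus named for none of Cre, HK1 and IRF7 is named for FLAG and EGFP. The name of the IRF7 adenovirus holds both as well. Both groups then received TGF-β at 5 ng/ml for 24 h, so that they shared the growth factor and the exposure to a virus. The 4 control libraries are labelled GFP and the 4 libraries of the other group are labelled OEIRF7, for overexpression of interferon regulatory factor 7, and the comparison asks which transcripts differed between them. The design text names an adeno-associated virus in place of the adenovirus. The methods give a C57BL/6 J background for the study's mouse strains, and the age and sex of the mice that gave these cells are not given in the sources used here. The legend of the experiment speaks of biological replicates, but their number differs from the number of libraries per group and the labels do not say which came from separate cultures, so p-values measure the spread between these libraries, which may be technical, and no library without TGF-β or without virus was analysed here.

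The libraries held 24454801 to 28658826 gene-assigned counts. Mouse Irf7 itself had 2272 to 3680 counts in the GFP libraries and 380 to 421 in the OEIRF7 libraries (log2 fold change -2.96, adjusted p = 7.7e-11 by edgeR's quasi-likelihood test with Benjamini-Hochberg adjustment over all genes tested), so that the targeted gene went against the label. The IRF7 adenovirus in the study's reagent list is named for the human gene, whose transcripts the mouse table does not count. The adeno-associated virus for Irf7 in that list carries the mouse gene, which would be counted. Which of them these libraries received cannot be told from the sources used here. Every direction below is therefore that of the library labels. OEIRF7 replicate 3 stood apart from the rest of its group: the chi-square statistic of a pair of libraries over genes, per degree of freedom, was 6.21 to 8.67 for pairs that included it and 2.69 to 4.10 for the other pairs of its group, and GFP replicate 2 was the most distant of its group, with 4.96 to 5.91 against 3.27 to 3.64. The 11 fibroblast markers summed to 16082 to 16678 CPM in the GFP libraries and 14715 to 15601 CPM in the OEIRF7 libraries (CPM, counts scaled for library depth and composition). At an adjusted p under 0.05, 2 of the 11 were higher, 6 lower and 3 neither, against 29.0% higher and 29.9% lower of all genes tested. Tcf21 had 1306 to 1659 and 462 to 693 counts (log2 fold change -1.33), while Pdgfra (0.25) and Vim (0.22) were higher. Of 6 cardiomyocyte markers Tnnt2 alone passed the filter, with 248 to 331 and 175 to 231 counts (log2 fold change -0.54). Ryr2 had 1 to 4 and 5 to 13 counts and Myh6 at most 1 in any library.

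Of the 10 members, 6 were higher in the OEIRF7 libraries at an adjusted p under 0.05, 3 were lower and 1 passed in neither direction. Over all genes tested, 29.0% were called higher and 29.9% lower, so that a call alone set no member apart. The same shares are the background for each list of genes counted below. Those lists were chosen with earlier results of these data known. Past a 2-fold difference the members were further from that background: 5 of 10 were higher and 1 of 10 lower, against 4.66% and 3.89% of all genes tested. The groups did not overlap in CPM for 6 members that were higher and 3 that were lower, against 26.8% and 27.0% of all genes. The median log2 fold change was 0.64 over the members and 0.0015 over all genes tested. Mmp9 passed the filter through the OEIRF7 libraries alone, so its inclusion favoured a difference. With 4 libraries against 4, an exact two-sided permutation test cannot go below p = 0.0286, and each of the 9 called members reached that value. These are bulk samples, in which fewer cells of a type and less RNA per cell cannot be told apart.

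**Figure D1:**
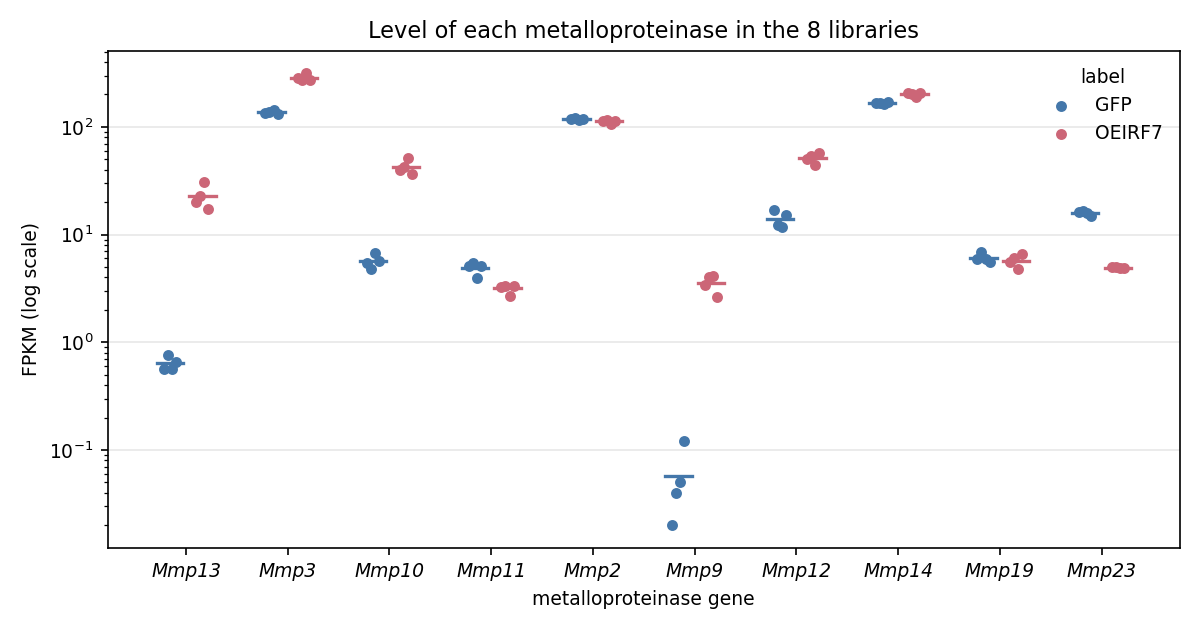
Level of each of the 10 metalloproteinases in every library, in FPKM (reads scaled for gene length and library depth, log axis); points are libraries, blue for GFP and red for OEIRF7, and the short lines are means (n = 4 per group). Mmp2, Mmp3 and Mmp14 lie above 100 FPKM in all 8 libraries, while Mmp13 and Mmp9 were below 1 FPKM in the GFP libraries and at 22.7 and 3.56 FPKM on average in the OEIRF7 libraries.

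Mmp3, Mmp10, Mmp12 and Mmp13 lie together in a cluster of metalloproteinase genes on chromosome 9, and RefSeq's promoter windows (GRCm38.p6, 250 bases before to 50 after each annotated start) were read for the members first. A window was found for 7 of the 10 members. None was found for Mmp2, Mmp9 and Mmp19, so their promoters were not searched. The AP-1 element, bound by Fos and Jun dimers and long known from the collagenase and stromelysin promoters, was searched as TGACTCA on both strands, which takes in its reverse complement TGAGTCA. It was present in the windows of Mmp3, Mmp10, Mmp12 and Mmp13, the 4 members of the chromosome 9 cluster, and in none of the windows of Mmp11, Mmp14 and Mmp23; 5.95% of the 27025 genes with a RefSeq promoter hold it. The 120 bases before the start are printed for those 4 and, as windows without the motif, for the most abundant GFP-library member, Mmp14, and for Mmp23, which had the largest decrease. Capitals mark the AP-1 element and the TATA sequence TATAAA, and each sequence runs 5′ to 3′ on the strand of the gene.
Mmp13 (chr9:7272394-7272513, plus strand): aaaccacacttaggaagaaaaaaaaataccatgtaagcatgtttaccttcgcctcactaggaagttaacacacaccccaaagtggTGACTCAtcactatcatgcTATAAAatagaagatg
Mmp3 (chr9:7445702-7445821, plus strand): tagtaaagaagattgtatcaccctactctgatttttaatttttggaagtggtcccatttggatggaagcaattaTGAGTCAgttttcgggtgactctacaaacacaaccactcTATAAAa
Mmp10 (chr9:7502222-7502341, plus strand): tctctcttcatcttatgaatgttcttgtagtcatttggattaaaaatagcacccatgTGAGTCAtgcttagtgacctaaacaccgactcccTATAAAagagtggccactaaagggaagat
Mmp12 (chr9:7347254-7347373, plus strand): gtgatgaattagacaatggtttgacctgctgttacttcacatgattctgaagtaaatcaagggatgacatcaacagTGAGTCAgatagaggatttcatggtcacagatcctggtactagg
Mmp14 (chr14:54431478-54431597, plus strand): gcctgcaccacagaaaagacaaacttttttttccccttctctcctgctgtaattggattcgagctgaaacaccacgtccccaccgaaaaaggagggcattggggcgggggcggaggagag
Mmp23 (chr4:155653385-155653504, minus strand): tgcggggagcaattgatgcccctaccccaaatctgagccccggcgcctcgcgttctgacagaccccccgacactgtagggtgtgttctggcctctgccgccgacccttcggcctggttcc

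Counting back from the annotated start, with -1 as the base before it, the AP-1 letters stood at -35 to -29 in Mmp13, -46 to -40 in Mmp3, -63 to -57 in Mmp10 and -44 to -38 in Mmp12. The Mmp12 match belongs to the second of 2 annotated starts, inside the gene as drawn by the annotation, and the window of the first start had none. TATAAA, searched on both strands, was found in the same 4 member windows and 15.7% of genes hold it: it stood at -16 to -11 in Mmp13, -7 to -2 in Mmp3 and -29 to -24 in Mmp10, and in Mmp12 after the start, at 5 to 10. The core of the interferon-stimulated response element, to which IRF factors bind, was present on either strand in the windows of 3.99% of genes and in 1 member, Mmp13, at -146 to -137. The NF-κB consensus, held by 1.38% of genes, was in none of the 7 member windows. Mmp2, Mmp9 and Mmp19 had no window, so the search says nothing of them. A match is a stretch of letters in a short window and does not show a bound site.

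Mmp13 is the main interstitial collagenase of the mouse and cuts fibrillar collagens across the triple helix. The gene (ENSMUSG00000050578) lies at chr9:7272514-7283331 on the plus strand of GRCm38, and its AP-1 and TATA letters, printed above, stand closer together than those of Mmp3 and Mmp10. Its level was 0.57, 0.77, 0.57 and 0.66 FPKM in GFP replicates 1 to 4 and 20.2, 22.7, 30.6 and 17.2 FPKM in OEIRF7 replicates 1 to 4. The lowest OEIRF7 library was far above the highest GFP library, and the libraries held 38 to 52 and 1121 to 2078 counts. The log2 fold change was 5.11 (SE 0.20, 95% interval 4.69 to 5.53, adjusted p = 4.4e-11), a 34.5-fold difference in the fit. OEIRF7 replicate 3 was the highest, and without it the log2 fold change was 4.93. The spread within the OEIRF7 group, a coefficient of variation of 25.9%, was the largest of that group among the members. Outside fibroblasts Mmp13 is known from cartilage and bone cells; of 5 tested markers of those cells 4 were lower and none was higher, 0 also at an unadjusted p under 0.05 by edgeR and 0 by DESeq2 (1 by limma on FPKM), and the markers summed to 91.3 to 94.4 CPM in the GFP libraries and 49.7 to 61.3 CPM in the OEIRF7 libraries.

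Mmp3, stromelysin-1, degrades proteoglycans, fibronectin and laminin and activates other proenzymes, among them those of the collagenases and of Mmp9. It lies at chr9:7445822-7455975 (ENSMUSG00000043613). GFP libraries 1 to 4 had 135, 137, 143 and 133 FPKM, and OEIRF7 libraries 1 to 4 had 287, 270.2, 314 and 274 FPKM. Already among the most abundant members in the control group, it was 2.06-fold higher in mean CPM in the other group, with no overlap. Its log2 fold change was 1.04 (SE 0.046, interval 0.94 to 1.14, adjusted p = 1.6e-10), or 0.99 without OEIRF7 replicate 3, which was the highest, a value that crosses the 2-fold line.

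Mmp10, stromelysin-2, has a substrate range like that of Mmp3 and is encoded at chr9:7502352-7510240 (ENSMUSG00000047562). Levels were 5.40, 4.78, 6.70 and 5.73 FPKM in the GFP libraries and 40.1, 42.5, 51.9 and 36.9 FPKM in the OEIRF7 libraries, again without overlap and with OEIRF7 replicate 3 on top. On the log2 scale it differed by 2.90 (SE 0.11, interval 2.66 to 3.14, adjusted p = 4.2e-11), and by 2.79 without that library. In mean CPM the difference was 7.45-fold.

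Mmp11, stromelysin-3, is named for its sequence but acts mainly on serpins and other non-matrix proteins, and unlike its namesakes it is activated inside the cell by furin-type convertases. It is encoded on the minus strand at chr10:75923222-75936496 (ENSMUSG00000000901), away from the cluster. It moved the other way from Mmp3 and Mmp10. Its level was 5.06, 5.46, 3.99 and 5.13 FPKM in the GFP libraries and 3.29, 3.36, 2.71 and 3.31 FPKM in the OEIRF7 libraries, which did not overlap. The log2 fold change was -0.66 (SE 0.11, interval -0.90 to -0.42, adjusted p = 0.00013), and -0.58 without OEIRF7 replicate 3. Its exons overlap those of Chchd10, so reads in the shared part could have been dropped or assigned to either gene.

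The gelatinases, which cut denatured collagen and basement membrane collagen, were at opposite ends of the abundance range. Mmp2 (gelatinase A, ENSMUSG00000031740, chr8:92827291-92853420) is the gelatinase that fibroblasts make at rest. It had 119, 121, 115 and 119 FPKM in the GFP libraries and 114, 116, 106 and 115 FPKM in the OEIRF7 libraries. The groups overlapped in FPKM, though not in CPM. The log2 fold change was -0.10 (SE 0.033, interval -0.17 to -0.03, adjusted p = 0.022). This call did not hold in 5 of 17 alternatives. Without OEIRF7 replicate 3, the lowest library, the value was -0.07 with an adjusted p of 0.059.

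Mmp9 (gelatinase B, ENSMUSG00000017737, chr2:164940780-164955850) is best known from neutrophils and macrophages and is induced in many cell types by cytokines. The GFP libraries held 2, 3, 4 and 10 counts and the OEIRF7 libraries 276, 367, 334 and 205. Per length, these were 0.02 to 0.12 FPKM against 3.42, 4.03, 4.14 and 2.64 FPKM. The OEIRF7 libraries were all higher, but Mmp9 remained, with Mmp11, the least abundant member there. Its log2 fold change of 5.88 (SE 0.27, interval 5.30 to 6.47, adjusted p = 2.4e-10) was the largest of the members and rests on few control counts; left-out libraries moved it between 5.61 and 6.51, the highest value without GFP replicate 4, which held the most control counts. On the log2(FPKM + 1) scale it was 2.10.

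Mmp12, the macrophage metalloelastase, degrades elastin. The gene (ENSMUSG00000049723) spans chr9:7344381-7369499. Levels were 16.8, 12.4, 11.8 and 15.1 FPKM in the GFP libraries and 50.7, 53.6, 44.4 and 57.4 FPKM in the OEIRF7 libraries. All 4 OEIRF7 libraries lay above the GFP libraries, and OEIRF7 replicate 3 was here the lowest. The log2 fold change was 1.82 (SE 0.090, interval 1.63 to 2.01, adjusted p = 4.2e-10) and 1.88 without replicate 3. Exons of Mmp12 and of Mmp1b, on the opposite strand, overlap at their ends, and because the strand setting of the counting is not given, reads of that stretch cannot be told apart.

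Because Mmp12 and Mmp9 are textbook products of myeloid cells, the markers of those cells were counted beside them. Of the 12 macrophage markers 11 were tested: 5 were higher, 1 lower and 5 passed in neither direction, with a median log2 fold change of 0.16. Their summed level was 297 to 352 CPM in the GFP libraries and 371 to 416 CPM in the OEIRF7 libraries. Adgre1, which encodes F4/80, had a log2 fold change of 0.44 (adjusted p = 0.00034), Itgam of 1.07 (adjusted p = 1.6e-09) and Mrc1 of 1.05 (adjusted p = 9.9e-07), whereas Cx3cr1 was at -1.86 (adjusted p = 4.7e-06). Cd68 was at 0.21 (adjusted p = 0.027 by edgeR) and Lyz2 at 0.22 (adjusted p = 0.0021 by edgeR). The 5 that did not pass were Csf1r (0.06, adjusted p = 0.54), Ptprc (-0.08, adjusted p = 0.64), Fcgr1 (0.16), C1qa (0.14) and C1qb (-0.32). No neutrophil marker passed the filter. The 8 together made 0.12 to 0.53 CPM in the GFP libraries and 0.59 to 1.05 CPM in the OEIRF7 libraries. S100a8 had 0 to 7 counts in the GFP and 9 to 22 in the OEIRF7 libraries, and Cxcr2 had 0 and 1 to 4. Mpo had 0 to 3 and 1 to 5 counts, and Csf3r went the other way, with 0 to 11 and 0 to 1. S100a9, Ly6g, Elane and Retnlg were without counts. In 9 alternatives 1 or 2 of these markers were called higher, and in 1 alternative 1 was called lower. Endothelial and mural cells can express Mmp9 as well. Of 6 tested endothelial markers 3 were higher (Kdr 0.79, Vwf 0.49 and Emcn 0.29 on the log2 scale) and 1 lower (Cdh5 -0.11). The endothelial list summed to 201 to 214 CPM in the GFP and 203 to 230 CPM in the OEIRF7 libraries. Of 5 tested mural markers 2 were higher (Cspg4 1.5, Rgs5 0.73) and 2 lower (Myh11 -0.98, Pdgfrb -0.16). The mural list summed to 1361 to 1487 CPM in the GFP and 1277 to 1429 CPM in the OEIRF7 libraries. The part of any of these cells in the Mmp12 and Mmp9 levels was not tested.

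Mmp14, the first membrane-type metalloproteinase (MT1-MMP), is a pericellular collagenase that also activates proMmp2 on the cell surface. It is encoded at chr14:54431612-54445364 (ENSMUSG00000000957). Its level was 167, 168, 163 and 169 FPKM in the GFP libraries and 205, 204, 188 and 205 FPKM in the OEIRF7 libraries. Although the difference was small, the groups did not overlap, because the replicates lay close together, with coefficients of variation of 1.71% and 3.58% in CPM. The log2 fold change was 0.24 (SE 0.032, interval 0.17 to 0.31, adjusted p = 1.3e-05), and 0.27 without OEIRF7 replicate 3, the lowest library of its group.

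Mmp19, a soluble enzyme of basement membrane and other matrix proteins, is encoded at chr10:128790910-128800824 (ENSMUSG00000025355). The GFP libraries had 5.91, 6.95, 5.88 and 5.58 FPKM and the OEIRF7 libraries 5.59, 6.02, 4.76 and 6.58 FPKM. The ranges overlapped widely. Its log2 fold change was -0.13 (SE 0.097, interval -0.33 to 0.08, adjusted p = 0.28, exact permutation p = 0.40), and the interval bounds the difference rather than showing that there is none. Exons of Mmp19 overlap those of Tmem198b.

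Mmp23 is a short membrane-anchored member that lacks the usual haemopexin domain and is released by cleavage. The gene (ENSMUSG00000029061) lies on the minus strand at chr4:155650655-155653384. Levels were 16.1, 16.6, 15.9 and 14.9 FPKM in the GFP libraries and 4.96, 5.04, 4.85 and 4.90 FPKM in the OEIRF7 libraries. Both groups were tight and far apart. Its log2 fold change was -1.71 (SE 0.065, interval -1.85 to -1.57, adjusted p = 3.8e-11), and its CPM was 3.27-fold lower in the OEIRF7 group. Mmp23 was the only member past the 2-fold line downwards, and the value without OEIRF7 replicate 3 was -1.70.

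**Figure D2:**
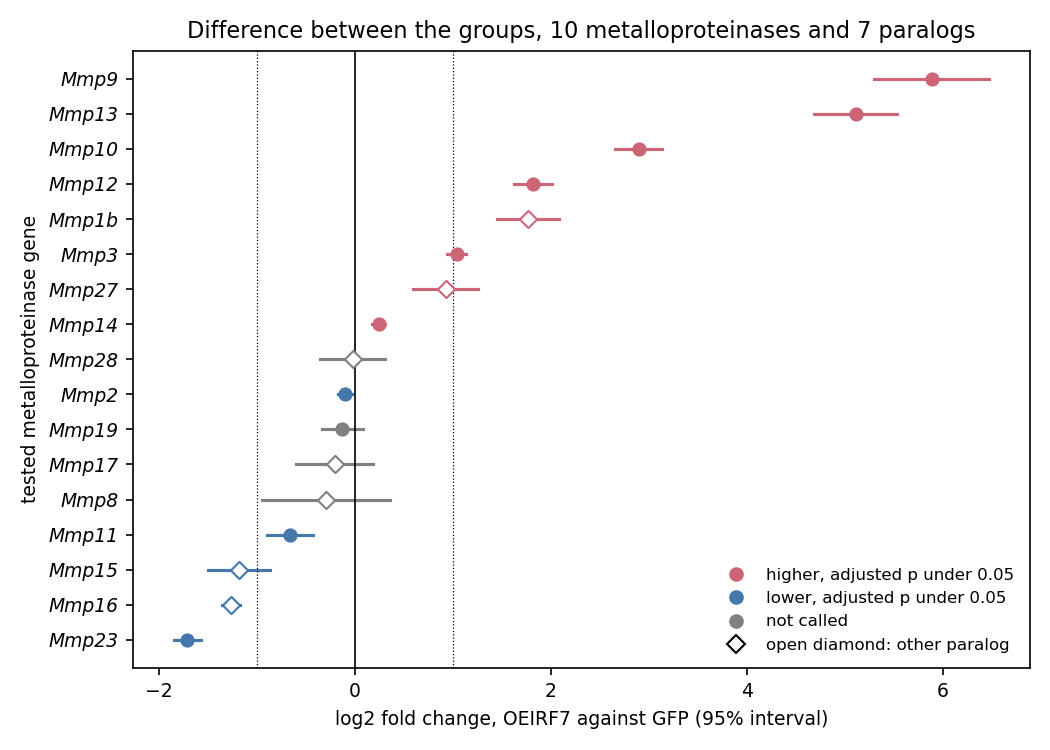
Log2 fold change of OEIRF7 against GFP for the 10 metalloproteinases (filled circles) and the 7 tested paralogs (open diamonds), with 95% intervals; dotted lines mark a 2-fold difference, red and blue mark an adjusted p under 0.05 in either direction and grey marks neither. The values run from -1.71 for Mmp23 to 5.88 for Mmp9.

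The order of the members by FPKM differed between the groups. In the GFP libraries Mmp14 was the most abundant, then Mmp3, Mmp2, Mmp23, Mmp12, Mmp19, Mmp10, Mmp11, Mmp13 and Mmp9. Neighbours in that order whose ranges overlapped were Mmp23 and Mmp12, Mmp19 and Mmp10, and Mmp10 and Mmp11. In the OEIRF7 libraries the order was Mmp3, Mmp14, Mmp2, Mmp12, Mmp10, Mmp13, Mmp19, Mmp23, Mmp9 and Mmp11. There the ranges of Mmp12 and Mmp10, of Mmp19 and Mmp23, and of Mmp9 and Mmp11 overlapped.

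Summed over the 10 members, the level was 470 ± 3.01 FPKM in the GFP libraries and 734 ± 13.1 FPKM in the OEIRF7 libraries (SD, n = 4 per group), 1.56-fold higher, and the groups did not overlap. Mmp3 made up 29.1% ± 1.02 of that sum in the GFP libraries and 39.0% ± 2.02 in the OEIRF7 libraries. Mmp14 went from 35.5% ± 0.409 to 27.3% ± 1.55 and Mmp2 from 25.3% ± 0.438 to 15.4% ± 0.832. The smaller shares of Mmp10 (1.20% to 5.83%), Mmp12 (2.99% to 7.03%) and Mmp13 (0.137% to 3.08%) were all larger in the OEIRF7 libraries, and that of Mmp23 was smaller (3.38% to 0.673%). Mmp3, Mmp9, Mmp10, Mmp12 and Mmp13 together reached 157 ± 3.37 and 407 ± 26.0 FPKM.

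**Figure D3:**
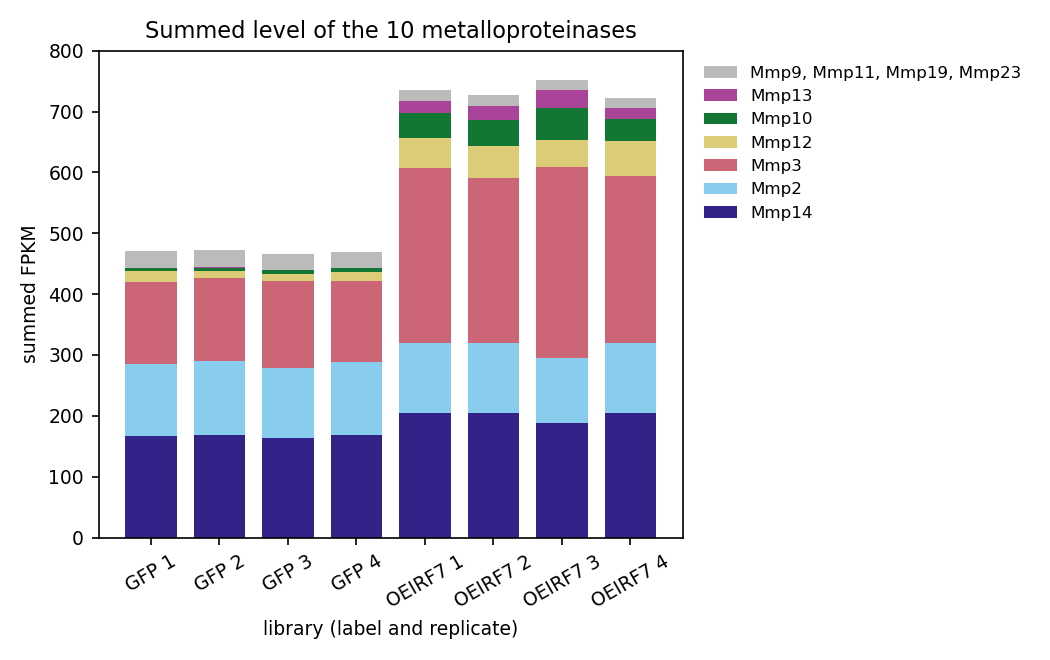
Summed FPKM of the 10 metalloproteinases in each library, stacked by gene, with Mmp9, Mmp11, Mmp19 and Mmp23 shown together. The GFP libraries sum to between 466 and 473 FPKM and the OEIRF7 libraries to between 723 and 753 FPKM, with wider bands for Mmp3, Mmp12, Mmp10 and Mmp13.

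Libraries of the OEIRF7 group did not rank the members alike. Replicate 3 was the highest of its group for 4 members, Mmp3, Mmp9, Mmp10 and Mmp13, and the lowest for the other 6, Mmp2, Mmp11, Mmp12, Mmp14, Mmp19 and Mmp23. Thus Mmp12, although it was higher in the OEIRF7 group, ranked in that library like Mmp14 and the members that were lower or not called, and not like its neighbours of the cluster. The within-group range of Mmp13 was 1.79-fold and that of Mmp23 1.03-fold in CPM.

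Across the cluster, which spans chr9:7272514-7699585 (427.1 kb), the annotation lists 10 metalloproteinase genes. From left to right these are Mmp13, Mmp12, Mmp1b, Mmp3, Mmp1a, Mmp10, Mmp8, Mmp27, Mmp20 and Mmp7, and 7 of them were tested. Of the 7, 6 were higher in the OEIRF7 libraries and 0 were lower by edgeR, 0 also at an unadjusted p under 0.05 and by DESeq2, and Mmp8, the neutrophil collagenase, did not pass (-0.29, interval -0.94 to 0.36, adjusted p = 0.43). Of the 13 metalloproteinase genes elsewhere, 10 were tested: Mmp9 and Mmp14 were higher, 5 were lower, and 3 did not pass. These counts include the members themselves and are given as a description.

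Around the cluster, within 300 kb, the flanking genes did not share one direction. On the left, Dync2h1 was at -0.35 and Dcun1d5 at 0.23; on the right, Tmem123 was at -0.15, Birc2 at 0.40, Birc3 at 1.41 and Yap1 at -0.25 on the log2 scale. Within the cluster the differences were unequal: Mmp13 at the left end had 5.11 and Mmp12, its neighbour, 1.82.

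**Figure D4:**
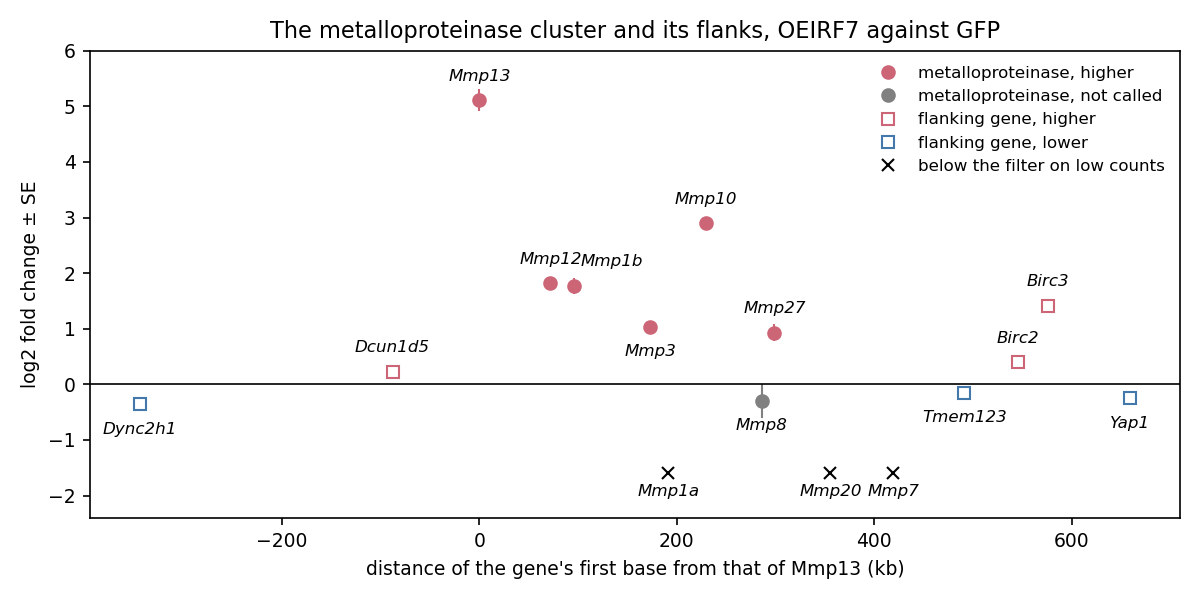
Log2 fold change of OEIRF7 against GFP (± SE) for the metalloproteinase cluster on chromosome 9 and the flanking genes, against the distance in kb between the leftmost base of each gene and that of Mmp13; circles are metalloproteinases, squares are flanking genes, and crosses are metalloproteinases below the filter on low counts, drawn at a fixed height. Of the 7 tested metalloproteinases 6 lie above 0 and Mmp8 lies at -0.29.

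Among the 13 paralogs 7 were tested, of which 2 were higher, 2 lower and 3 passed in neither direction (median log2 fold change -0.20). Mmp1b, a mouse counterpart of the interstitial collagenase, had 63, 40, 59 and 55 counts in the GFP libraries and 191, 229, 196 and 144 in the OEIRF7 libraries, a log2 fold change of 1.77 (SE 0.15, adjusted p = 1.0e-07). Its value carries the overlap with Mmp12 and the closeness of its sequence to that of Mmp1a. Mmp27, a stromelysin-like gene of the cluster, had 58, 42, 45 and 47 counts against 78, 111, 96 and 89 (log2 fold change 0.93, SE 0.15, adjusted p = 0.00011). The promoter windows of Mmp1a, Mmp1b and Mmp7 held the AP-1 letters, and that of Mmp27 did not.

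Both paralogs that were lower are membrane-type enzymes. Mmp16 (MT3-MMP) was the most abundant paralog, at 29.1 ± 1.49 FPKM in the GFP libraries and 12.4 ± 0.322 FPKM in the OEIRF7 libraries (SD, n = 4), a log2 fold change of -1.26 (SE 0.042, adjusted p = 1.2e-11). Mmp15 (MT2-MMP) had 124, 123, 121 and 148 counts against 58, 62, 44 and 68 (log2 fold change -1.18, SE 0.15, adjusted p = 8.1e-06). Of the tested membrane-type genes Mmp14 was higher, Mmp15 and Mmp16 were lower and Mmp17, which is held by a lipid anchor, did not pass (-0.20, interval -0.60 to 0.19, adjusted p = 0.36).

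The remaining paralogs were scarce. Mmp28 (epilysin), with 70 to 104 and 80 to 99 counts, had a log2 fold change of -0.02 (interval -0.35 to 0.31, adjusted p = 0.92). Mmp1a had 0, 0, 0 and 2 counts in the GFP libraries and 0, 4, 6 and 2 in the OEIRF7 libraries. Of the membrane-type genes below the filter, Mmp24 had 4, 6, 0 and 6 against 9, 18, 8 and 9, without overlap, and Mmp25 had 5, 3, 1 and 4 against 4, 8, 8 and 7. A single GFP library had 1 count of Mmp21, and Mmp7 and Mmp20 had no counts, where 0 counts allows up to 3 counts in a library.

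The inhibitors moved in both directions. Timp1, the inducible secreted inhibitor, had 593, 707, 677 and 587 FPKM in the GFP libraries and 976, 944, 923 and 922 FPKM in the OEIRF7 libraries, a log2 fold change of 0.53 (SE 0.051, adjusted p = 5.4e-07). Timp3, which is bound to the matrix, had 507, 550.3, 465 and 494 FPKM against 417, 406, 358 and 431 FPKM (log2 fold change -0.35, SE 0.054, adjusted p = 5.2e-05). Timp2, which forms a complex with Mmp14 that captures proMmp2, was at 366 ± 28.4 and 395 ± 17.2 FPKM (SD, n = 4) and did not pass (log2 fold change in counts -0.01, interval -0.08 to 0.07, adjusted p = 0.85). Timp4 had 1 to 7 and 2 to 5 counts and was not tested.

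Reck, a membrane-anchored glycoprotein that restrains Mmp2, Mmp9 and Mmp14, had the largest decrease of the inhibitors. Its level was 25.9, 25.9, 23.6 and 23.9 FPKM in the GFP libraries and 9.33, 8.46, 7.84 and 9.06 FPKM in the OEIRF7 libraries. The log2 fold change was -1.55 (SE 0.053, interval -1.66 to -1.43, adjusted p = 1.6e-11), in the direction opposite to that of Mmp9 and Mmp14 and the same as that of Mmp2, whose difference of -0.10 was far smaller. Of 6 tested inhibitor genes 1 was higher, 2 were lower and 3 did not pass. The Timp genes stayed more abundant than the proteases: Timp1 to Timp4 summed to 1511 ± 103 FPKM in the GFP libraries and 1739 ± 63.3 FPKM in the OEIRF7 libraries (SD, n = 4).

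Of 10 genes of proenzyme activation 5 were higher, 2 lower and 3 passed in neither direction (median 0.14). Plaur, the receptor that gathers urokinase at the cell surface, was at 8.02 ± 0.952 and 42.4 ± 3.48 FPKM (SD, n = 4 per group), a log2 fold change of 2.38 (SE 0.080, adjusted p = 1.3e-11). Pcsk6, a furin-like convertase, was at 59.3 ± 3.56 and 27.2 ± 1.42 FPKM, a log2 fold change of -1.10 (SE 0.040, adjusted p = 2.3e-11). The number of genes higher on this list was 3 without GFP replicate 2 and 3 without OEIRF7 replicate 3.

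Among 10 genes listed as cell surface partners, mostly receptors that hold metalloproteinases or bind their substrates, 4 were higher and 3 lower (median 0.11). Cav1, which was lower, and Lcn2, which did not pass, are on the list but are not receptors. Cd44, the hyaluronan receptor that docks Mmp14 and Mmp9, was at 68.3 ± 4.38 and 190 ± 8.56 FPKM (log2 fold change 1.44, SE 0.047, adjusted p = 9.0e-12). Itgb3, the integrin subunit of the αvβ3 receptor to which Mmp2 binds, was at 2.13 ± 0.052 and 6.93 ± 0.635 FPKM (log2 fold change 1.68, SE 0.071, adjusted p = 1.0e-10).

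Of 14 matrix substrates, 10 were lower, 1 was higher and 3 did not pass, with a median log2 fold change of -0.24. Past 2-fold there was 1 gene, Acan, the cartilage proteoglycan aggrecan, which was scarce, at 84 to 118 and 24 to 34 counts (log2 fold change -1.75, SE 0.17, adjusted p = 7.1e-07). The gene that was higher, named after its value was seen, was Tnc, tenascin-C (56.6 ± 5.10 and 112 ± 8.92 FPKM, log2 fold change 0.96, adjusted p = 1.0e-08). All 7 myofibroblast markers were lower, among them Acta2, the gene of α-smooth muscle actin, at -1.83 (adjusted p = 1.2e-12).

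The list of transcription factors known from metalloproteinase promoters held 16 tested genes, of which 12 were higher and 4 did not pass, with a median log2 fold change of 0.53. None was lower by edgeR, with 0 also at an unadjusted p under 0.05 and 0 by DESeq2. Of the 7 AP-1 genes 6 were higher, 3 of them past 2-fold. Fosl1 (Fra-1) was at 3.59, 4.07, 4.76 and 4.63 FPKM in the GFP libraries and 18.2, 19.5, 24.4 and 18.9 FPKM in the OEIRF7 libraries, a log2 fold change of 2.21 (SE 0.10, adjusted p = 2.2e-10). Its highest library was OEIRF7 replicate 3, as for Mmp3, Mmp9, Mmp10 and Mmp13. Fosb had a log2 fold change of 1.55 (adjusted p = 1.2e-07) and Junb of 1.41 (adjusted p = 1.2e-12), while Fos was at 0.61, Jun at 0.53, Jund at 0.32 and Fosl2 at 0.10, which did not pass. Etv4, an ETS factor whose sites often stand beside AP-1 sites, had 1.29 (adjusted p = 1.3e-08).

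Of 10 tested cytokines and receptors known to induce metalloproteinases 6 were higher and 4 did not pass, with a median log2 fold change of 1.16. Tnf, Il1a and Osm, with fewer than 10 counts in at least 1 GFP library each, passed the filter through the OEIRF7 libraries, where they were high, so the count and the median lean on that choice. The abundant ligands Il6 (-0.05, adjusted p = 0.73) and Lif (-0.0016, adjusted p = 0.99) did not pass the test. Tnf had 8 to 16 counts in the GFP libraries and 75 to 111 in the OEIRF7 libraries (log2 fold change 3.0, SE 0.22, adjusted p = 3.2e-08). Il1a had 5 to 14 and 49 to 66 counts (2.42, SE 0.30, adjusted p = 6.9e-06). Il1rn, which encodes the antagonist of the interleukin-1 receptor and so opposes interleukin-1, had 12 to 17 and 64 to 111 counts (2.57, SE 0.23, adjusted p = 2.0e-07). Osm had 2 to 7 and 15 to 31 counts (2.17, SE 0.38, adjusted p = 0.0002). Il1b was below the filter, with 0 to 1 and 3 to 5 counts.

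**Figure D5:**
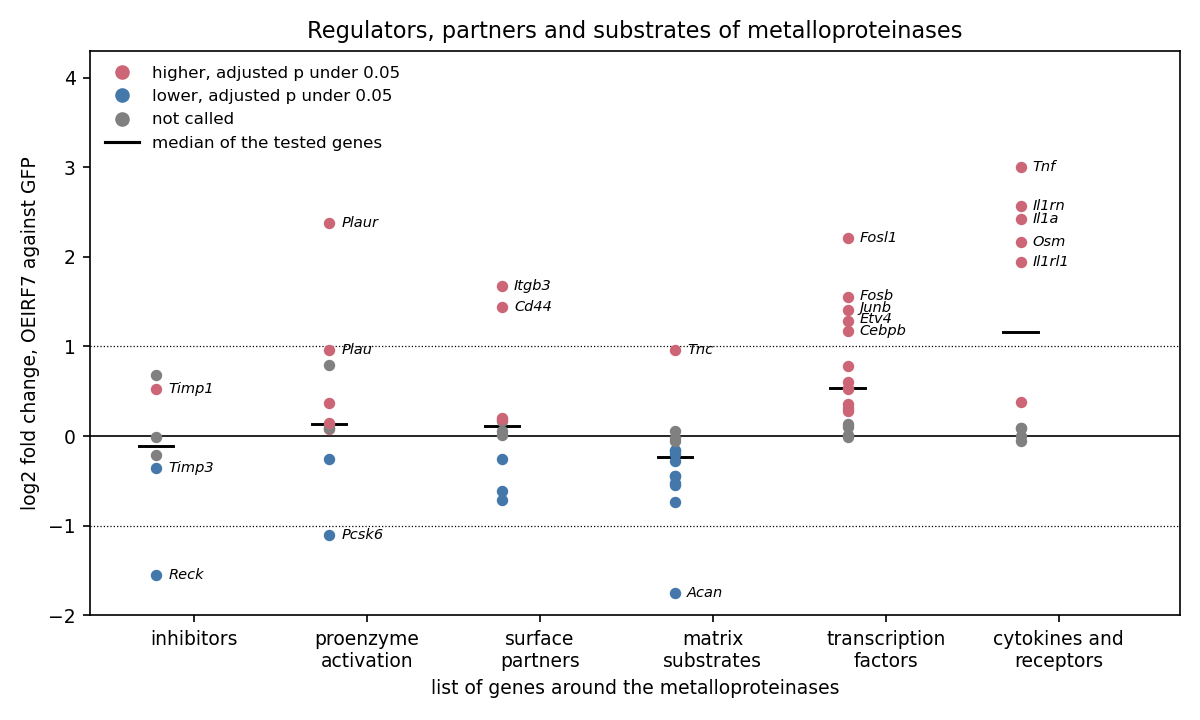
Log2 fold change of OEIRF7 against GFP for the tested genes of 6 lists around the metalloproteinases; red and blue points passed an adjusted p of 0.05, grey points did not, black bars are medians, dotted lines mark a 2-fold difference, and labels name called genes past 0.9 in either direction with Timp1 and Timp3. The transcription factor medians and cytokine medians lie at 0.53 and 1.16, the latter with scarce genes that passed the filter through the OEIRF7 libraries, and those of inhibitors and substrates at -0.11 and -0.24.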

How the data were processed

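Gene expression was measured by RNA-seq in 8 libraries of mouse primary cardiac fibroblasts. According to the study's methods, the authors trimmed 150 bp paired reads with Trimmomatic, aligned them to GRCm38 with HISAT2, and took gene counts from HTSeq-count and FPKM from Cufflinks; versions and the strand setting are not given in the sources used here, and the labels name another extraction and library kit than the methods. The deposited table holds raw counts and FPKM per library, which were used, and group means and a test of the authors' own, which were not. Gene symbols were restored from Ensembl identifiers (22219 of 22274 matched), because letters had been replaced in some. Totals of 24454801 to 28658826 counts set the precision, and counting limits cover counting error only.

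Counts were tested with edgeR 4.0.16 in R 4.3.3 (TMM scaling, filterByExpr, quasi-likelihood F test, Benjamini-Hochberg over 13533 genes). The SE is the log2 fold change divided by the square root of F. FPKM served for levels. Alternatives used DESeq2 1.42.0, other scaling and filters, a replicate block, left-out libraries, and limma 3.58.1 on log2 FPKM (pseudocount 1 or 0.1, genes over a mean of 0.1). The script was tested on simulated data. All 10 members and all 13 paralogs were named, with the TIMP genes and Reck; from the other lists, called genes past 2-fold were named, at most 4 a list by size. Marker genes and flanking genes are given as descriptions. The members and lists were chosen with earlier results of these data known. Positions are from GENCODE for GRCm38, promoters from RefSeq for GRCm38.p6.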

Additional observations from a re-analysis of the deposited data

Results flagged for a closer look

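Dixon's ratio was computed for the CPM of each member in each group of 4 libraries, 20 groups in all, of which chance alone gives about 1 in 20. It picked out 2 values. Mmp14 was at 488 CPM in OEIRF7 replicate 3, while the other libraries of that group lay between 523 and 526 CPM; that library was still above every GFP library. Mmp19 was at 20.6 CPM in GFP replicate 2, against 15.8 to 16.2 CPM in the other GFP libraries. These are the libraries that differed most from the rest of their groups over all genes.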

How the results depend on the processing

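Over 16 or 17 alternatives per member, 164 values kept their side of the threshold, and their direction where called. The other 5 values, all of Mmp2, lost the call. Without scaling Mmp2 was at -0.0686 (adjusted p = 0.095 by edgeR). With limma it was at -0.0744 (adjusted p = 0.091) on log2(FPKM + 1) and -0.0750 (adjusted p = 0.093) on log2(FPKM + 0.1). Without GFP replicate 2 and OEIRF7 replicate 3 together, an alternative chosen after seeing the data, it was at -0.0626 (adjusted p = 0.11 by edgeR). With libraries left out in turn it ran from -0.11 to -0.07, losing the call without OEIRF7 replicate 3. The cause was not tested. Mmp9 failed a filter of 10 counts in every library, which leaves 5 members called higher. Mmp19, never called, ran from -0.19 to 0.03. Genes called higher numbered 3688 to 4346 and lower 3309 to 4154. Of the values for other genes and lists, 2322 were unaffected. Here genes kept their call, and their direction where called, and list counts stayed within 1.5 times. Another 47 values lost and 25 gained a call. The 31 counts of small lists that moved by over 1.5 times were mostly of neutrophil and endothelial markers. The replicate block gave 4057 genes higher and 4154 lower, with 6 members higher and 3 lower. Same-numbered libraries correlated at 0.0792 to 0.138 in their deviations from the group means, above 0.1 in 2 of 4 pairs. Other pairs lay between -0.158 and 0.0476. Each of the 8 correlated best with its own number, a hint of pairing from the data and not from the design. The labels give no pairing beyond the shared number. Scarce genes, Mmp9 in the GFP libraries and the 6 untested paralogs, are limited by depth.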
